A study of Rattus norvegicus with 7 samples.

Results

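The 30 genes described here are markers of astrocytes, chosen by name: Gfap, Aqp4, Aldh1l1, Slc1a2, Slc1a3, Aldoc, S100b, Agt, Clu, Atp1b2, Ntsr2, Slc4a4, Mlc1, Acsbg1, Thbs4, Vim, Nes, Glul, Slc6a11, Hepacam, Fabp7, Ndrg2, Slc39a12, Slc14a1, Cbs, Sparcl1, Mt3, Ttyh1, Gpc5 and Cpe. A row with the symbol was found for 29 of the 30 among 32852 genes, and Gpc5 was not analysed here. They were read in RNA from cultured rat oligodendrocyte progenitor cells, taken from the brain at postnatal day 7 and kept for 4 to 5 days in a medium that lets them differentiate. In 3 libraries the cells had received siRNLTR12-int, an siRNA named for RNLTR12-int, which is a retroviral element of the rat genome, and in 4 libraries a control siRNA. All 7 libraries come from wild-type cells plated at about 40000 per well, share the lipid transfection reagent and the medium given at transfection, and had RNA integrity numbers of 9 to 10. The labels number the libraries as biological replicates and name no animal, culture or day, so p-values measure only the spread between these samples, which may be technical. The level of RNLTR12-int was not analysed here, so the knockdown itself was not checked. The libraries held 22523873 to 61803693 recovered reads, and no member was below 64 reads in any library. Counting error is thus small beside the differences between libraries for most members. It weighs more for Thbs4, which had 64 reads in control replicate 4 and 81 in control replicate 2.

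Astrocytes are the glial cells that take up transmitter, buffer water and ions at vessels and synapses, and supply neurons with metabolites. Progenitors of the oligodendrocyte lineage can also take the astrocyte path in culture. Several of the genes are not exclusive to astrocytes: Vim and Nes mark immature and reactive glia, Fabp7 marks radial glia and progenitors, and Glul, Cpe, Sparcl1, Ttyh1 and Slc1a3 are also found in other neural cells. In bulk RNA, fewer cells of a type and less RNA per cell cannot be told apart.

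The astrocyte genes did not separate the siRNA groups. They separated 3 libraries, siRNLTR12-int replicate 1 and control replicates 1 and 2, from the other 4, in which Gfap was 5 or more times lower. The members together took 2.82%, 0.895% and 0.897% of the reads in siRNLTR12-int replicates 1 to 3, against 2.66%, 2.18%, 0.896% and 0.903% in control replicates 1 to 4. Both siRNA groups thus hold libraries at a high and at a low share. In 27 of the 29 members (93.1%) those same 3 libraries were the 3 highest. Of the 18225 genes tested, those averaging 10 or more normalised counts, 18.6% had these 3 libraries on top. The exceptions were Nes and Thbs4. These 3 libraries were known from earlier results of these data, so the count is a description and carries no test.

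**Figure D1:**
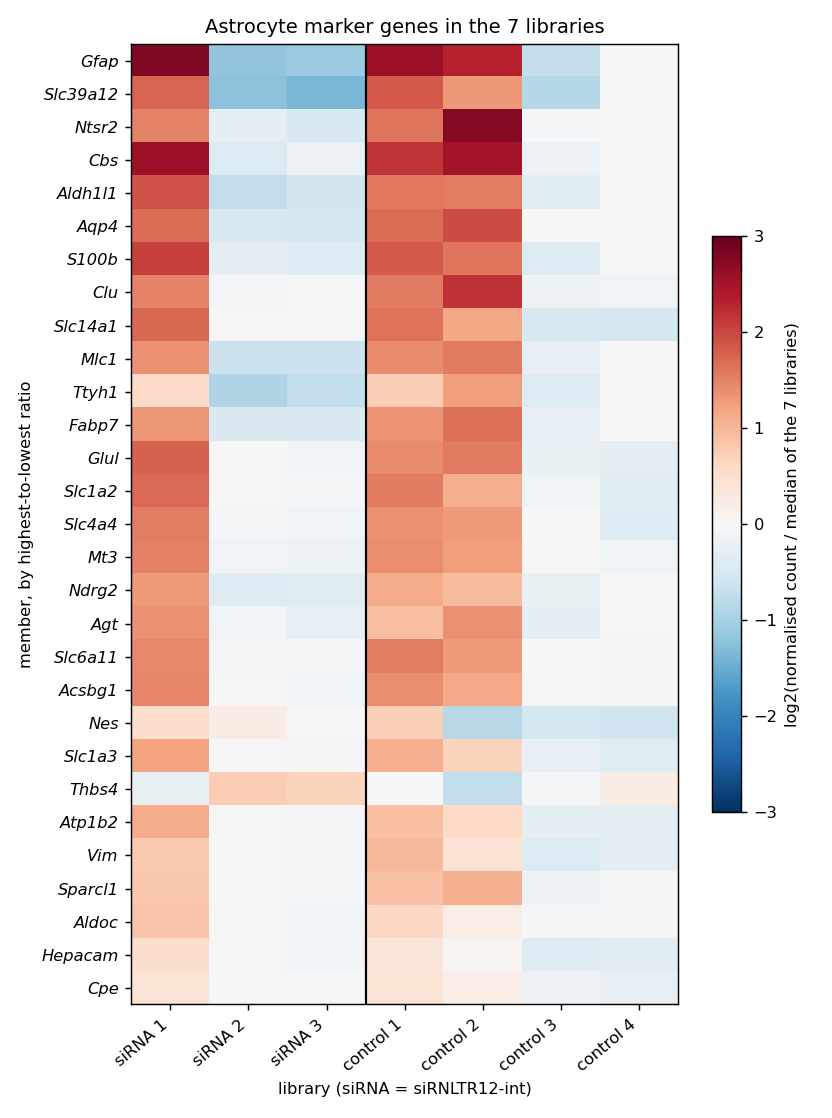
Normalised counts of the 29 measured astrocyte genes (rows, from the largest to the smallest ratio between highest and lowest library) in 3 siRNLTR12-int libraries, left of the line, and 4 control libraries, as log2 of the value over the gene's median of the 7 libraries. siRNLTR12-int replicate 1 and control replicates 1 and 2 are the 3 highest libraries in 27 rows, and Nes and Thbs4 depart from that pattern.

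Gfap, the intermediate filament protein by which astrocytes are usually recognised (ENSRNOG00000002919), varied most. It had 306397, 19440 and 20478 normalised counts (reads scaled by the authors with 1 size factor per library) in siRNLTR12-int replicates 1 to 3, against 262591, 224537, 27204 and 44392 in control replicates 1 to 4. Its highest library stood 15.8 times above its lowest, and the ranges of the 2 siRNA groups overlapped. Gfap alone took 0.745%, 0.0486% and 0.0527% of the reads in siRNLTR12-int replicates 1 to 3, against 0.661%, 0.501%, 0.072% and 0.111% in control replicates 1 to 4. Between the groups the log2 difference was -0.89 with a standard error of 1.23 (limma adjusted p = 0.981), and the 95% interval ran from -3.77 to 1.99. That value rested on single libraries and on the tool: it was -2.20 without siRNLTR12-int replicate 1, -1.47 without control replicate 3, -0.21 and -0.25 without siRNLTR12-int replicates 2 and 3, -0.38 and -0.46 without control replicates 1 and 2, and -0.28 with edgeR. Among the 4 libraries low in Gfap, siRNLTR12-int replicates 2 and 3 lay below control replicates 3 and 4.

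S100b, a calcium-binding protein of astrocytes and some oligodendrocyte lineage cells, had 30433, 6073 and 5674 normalised counts in siRNLTR12-int replicates 1 to 3, against 26338, 22460, 5582 and 7387 in control replicates 1 to 4. The gap was again between libraries of the same siRNA, with the lowest of the 3 high libraries 3.04 times the highest of the other 4. Vim, the intermediate filament of immature and reactive glia, had 41037, 23803 and 23208 normalised counts in siRNLTR12-int replicates 1 to 3, against 47030, 32106, 17896 and 19296 in control replicates 1 to 4. Its gap was 1.35 times, much narrower than that of Gfap.

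Nes, the intermediate filament of neural progenitors, departed from the same 3 libraries through control replicate 2 alone. Control replicate 1 and siRNLTR12-int replicate 1 were still its highest libraries. It had 6097, 4961 and 4258 normalised counts in siRNLTR12-int replicates 1 to 3, against 6943, 2398, 2963 and 2853 in control replicates 1 to 4. Control replicate 2, high in Gfap, was the lowest library for Nes, and control replicate 1 was above all 3 siRNLTR12-int libraries. The log2 difference was 0.55 with a standard error of 0.36 (limma adjusted p = 0.906).

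The stretches before the starts of 4 of these genes are shown side by side. They are the member with the widest spread (Gfap), 2 members that follow it and hold a match to a motif searched (S100b and Ntsr2) and Nes. Nes departs from Gfap in control replicate 2. Each is the 250 bases before the RefSeq start in build GRCr8, written 5′ to 3′ on the gene's strand. Capitals mark matches, on either strand, to the STAT motif TTCNNNGAA and to the NFI half-site TTGGC, which stand for factors of astrocyte development.
Gfap (chr10:88361662-88361911, minus strand): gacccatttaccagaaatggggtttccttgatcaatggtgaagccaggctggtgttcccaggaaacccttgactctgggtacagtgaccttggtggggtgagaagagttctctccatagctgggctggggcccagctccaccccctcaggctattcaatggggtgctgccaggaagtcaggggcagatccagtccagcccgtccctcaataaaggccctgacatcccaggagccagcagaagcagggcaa
S100b (chr20:12381082-12381331, minus strand): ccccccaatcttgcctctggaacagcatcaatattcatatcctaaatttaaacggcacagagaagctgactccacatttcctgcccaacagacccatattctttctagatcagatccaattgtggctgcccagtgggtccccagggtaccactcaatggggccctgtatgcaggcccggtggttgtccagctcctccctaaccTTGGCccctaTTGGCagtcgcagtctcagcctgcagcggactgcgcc
Ntsr2 (chr6:45152845-45153094, plus strand): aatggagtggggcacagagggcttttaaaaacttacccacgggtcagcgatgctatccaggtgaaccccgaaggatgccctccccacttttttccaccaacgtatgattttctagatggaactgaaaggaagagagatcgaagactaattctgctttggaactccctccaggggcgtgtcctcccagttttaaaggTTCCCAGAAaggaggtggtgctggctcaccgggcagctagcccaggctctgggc
Nes (chr2:175736338-175736587, plus strand): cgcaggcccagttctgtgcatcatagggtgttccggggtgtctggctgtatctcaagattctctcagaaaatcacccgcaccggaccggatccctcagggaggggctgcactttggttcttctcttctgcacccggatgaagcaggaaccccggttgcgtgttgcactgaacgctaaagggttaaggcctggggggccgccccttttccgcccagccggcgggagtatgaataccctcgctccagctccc
Of the 29 members, 27 matched a RefSeq promoter by symbol. The STAT motif was found in 2 of the 27 (7.41%), Acsbg1 and Ntsr2, against 7.52% of 27457 promoters of the same length. TTGGC was found in 15 (55.6%) against 40.3%, and it lies within the full NFI motif, TTGGC followed 5 bases later by GCCAA, which was in 0 members and 0.0401% of promoters. The HES motif CACNAG was found in 8 members (29.6%) against 36.8%. Gfap and Nes held neither of the capitalised motifs in this window, and Gfap held a match to CACNAG, which is not capitalised. The 4 printed stretches were picked and show no link between motif and spread. Thbs4, which did not follow Gfap, held TTGGC. Aqp4, Aldh1l1, Glul and Slc1a2, which followed, held neither capitalised motif.

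Of 11 transporters, channels and other membrane proteins, all 11 had the same 3 libraries highest. Aqp4, the water channel of astrocyte endfeet, had 89124, 19904 and 19388 normalised counts in siRNLTR12-int replicates 1 to 3, against 89062, 108704, 27671 and 27960 in control replicates 1 to 4. The high libraries of both siRNA groups were thus within a narrow range, 3.19 times or more above the others. Mlc1, a membrane protein mutated in a leukodystrophy with cysts, had 27856, 6914 and 6976 normalised counts in siRNLTR12-int replicates 1 to 3, against 29104, 32060, 9167 and 10822 in control replicates 1 to 4. Hepacam, the adhesion molecule that partners Mlc1, had 13802, 9522 and 8938 normalised counts in siRNLTR12-int replicates 1 to 3, against 12187, 10159, 7291 and 7605 in control replicates 1 to 4. Although the proteins work together, their transcripts were spread differently, with a ratio between highest and lowest library of 4.64 for Mlc1 and of 1.89 for Hepacam.

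The glutamate transporters clear transmitter from the synapse. Slc1a2 (GLT-1) had 19846, 6094 and 5923 normalised counts in siRNLTR12-int replicates 1 to 3, against 17954, 13011, 5582 and 4831 in control replicates 1 to 4. Slc1a3 (GLAST) had 93777, 41581 and 39969 normalised counts in siRNLTR12-int replicates 1 to 3, against 87473, 66436, 35298 and 32550 in control replicates 1 to 4. In both genes control replicate 4 was the lowest library, and the ratio between highest and lowest library was 4.11 for Slc1a2 and 2.88 for Slc1a3. Their log2 differences between the siRNA groups were 0.01 and 0.08, with standard errors of 0.61 and 0.45 (limma adjusted p = 0.999 and 0.997).

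Slc39a12, a zinc importer, had 1086, 138 and 126 normalised counts in siRNLTR12-int replicates 1 to 3, against 1162, 803, 180 and 325 in control replicates 1 to 4. Ttyh1, a tweety family membrane protein, had 16150, 5741 and 6468 normalised counts in siRNLTR12-int replicates 1 to 3, against 18005, 25888, 8184 and 10783 in control replicates 1 to 4. In both, the 2 lowest libraries were siRNLTR12-int replicates 2 and 3. The other membrane members were the GABA transporter Slc6a11, the sodium bicarbonate cotransporter Slc4a4, the urea transporter Slc14a1 and the sodium pump subunit Atp1b2, whose ratios between highest and lowest library were 3.03, 3.76, 4.71 and 2.63. In Slc14a1, Slc4a4 and Atp1b2 the lowest library was control replicate 4, and in Slc6a11 it was siRNLTR12-int replicate 3.

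All 5 enzymes followed the same 3 libraries. Aldh1l1, the folate enzyme widely used to label astrocytes, had 2831, 460 and 521 normalised counts in siRNLTR12-int replicates 1 to 3, against 2292, 2240, 611 and 768 in control replicates 1 to 4. Glul, the glutamine synthetase that recycles transmitter glutamate, had 106691, 31085 and 29152 normalised counts in siRNLTR12-int replicates 1 to 3, against 83371, 92268, 26993 and 25748 in control replicates 1 to 4. Aldoc, the brain form of the glycolytic aldolase, had 24295, 13517 and 12806 normalised counts in siRNLTR12-int replicates 1 to 3, against 20623, 15437, 12904 and 13128 in control replicates 1 to 4. The gap was 2.92 times in Aldh1l1 and 2.68 times in Glul, but only 1.14 times in Aldoc, so the classical enzyme markers did not move by one common factor. The fatty acid ligase Acsbg1 and the cystathionine synthase Cbs had ratios between highest and lowest library of 2.99 and 7.89.

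Among 6 secreted proteins, receptors and processing enzymes, 5 followed. Agt, the precursor of angiotensin, had 2182, 792 and 704 normalised counts in siRNLTR12-int replicates 1 to 3, against 1571, 2154, 693 and 837 in control replicates 1 to 4. Ntsr2, a neurotensin receptor, had 1917, 563 and 505 normalised counts in siRNLTR12-int replicates 1 to 3, against 2101, 4619, 665 and 688 in control replicates 1 to 4. Control replicate 2 was the highest library for Ntsr2, as it was for the secreted chaperone Clu and the matrix protein Sparcl1. Cpe, the carboxypeptidase that trims peptide hormones, had 18810, 14249 and 14090 normalised counts in siRNLTR12-int replicates 1 to 3, against 18884, 16446, 12571 and 11930 in control replicates 1 to 4. With a ratio of 1.58 between highest and lowest library Cpe was the least variable member, whereas Clu and Sparcl1 had ratios of 4.98 and 2.33.

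Thbs4, a thrombospondin of the extracellular matrix, was the other member that did not follow. It had 84.0, 165 and 156 normalised counts in siRNLTR12-int replicates 1 to 3, against 97.6, 58.8, 93.9 and 114 in control replicates 1 to 4. Here siRNLTR12-int replicates 2 and 3 were the 2 highest libraries and control replicate 2 the lowest, while siRNLTR12-int replicate 1 lay inside the control range. Its log2 difference of 0.54 had a standard error of 0.33, the smallest p of the members in limma across all genes (adjusted p = 0.895).

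The intracellular binding proteins were Fabp7, Ndrg2 and Mt3. Fabp7, the brain fatty acid binding protein, had 7851, 2306 and 2311 normalised counts in siRNLTR12-int replicates 1 to 3, against 7950, 9818, 2655 and 3129 in control replicates 1 to 4. The metallothionein Mt3 and the differentiation-related Ndrg2 had the same 3 libraries highest, with ratios between highest and lowest of 3.24 and 3.15, against 4.26 for Fabp7.

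The spread over the 7 libraries ranged from 1.58 times in Cpe to 15.8 times in Gfap. Over 2 times were 26 of the 29 members (89.7%), against 41.3% of all genes tested, and over 5 times were 7 members (24.1%), against 12%. The median ratio was 3.76 in the members and 1.76 over all genes tested. Cpe, Aldoc and Hepacam stood near the middle of all genes, at percentiles of 40.7, 55.5 and 55.3, and Gfap at 96.7.

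**Figure D2:**
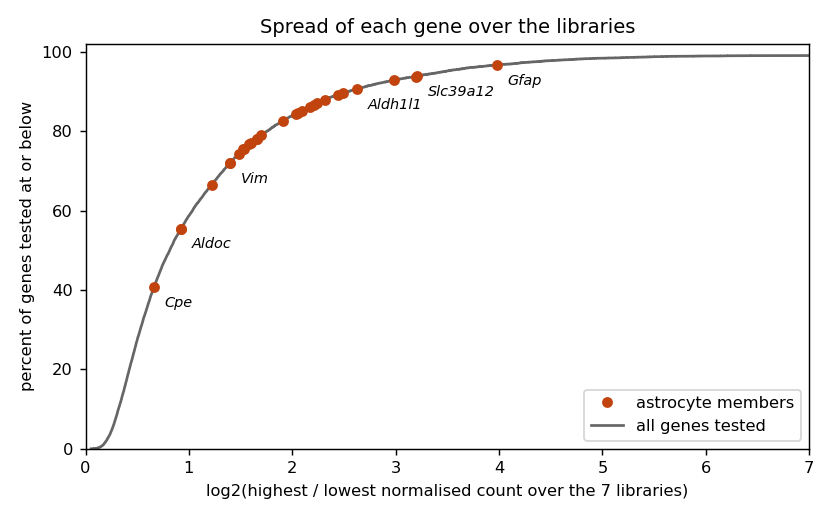
Ratio of the highest to the lowest normalised count over the 7 libraries (x axis, log2) against the percent of the 18225 genes tested at or below it (y axis), with the 29 astrocyte genes as points on the curve of all genes. The members reach from Cpe, at a ratio of 1.58, to Gfap, at 15.8.

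The comparison of the siRNAs asks whether astrocyte transcripts depend on RNLTR12-int while progenitors differentiate. Of the 29 members, 0 passed with limma in either direction, where 0% of the 18225 genes tested passed, and 0 members had an unadjusted p under 0.05, against 6.3% of all genes. With edgeR on the recovered reads 0 members passed and 0 had an unadjusted p under 0.05 (0% and 6.39% of all genes). In the authors' deposited table (DESeq2) none of the 29 passed, with adjusted p-values of 0.866 or more, against 0.752% of 18747 genes. Log2 differences were negative in 19 members (65.5%) and positive in 10, against 49% and 51% of all genes, with a median of -0.18, against 0.006 over all genes. They ran from -0.89 in Gfap to 0.55 in Nes, with standard errors of 0.20 to 1.23 and adjusted p-values of 0.895 to 0.999 (limma). In 0 members did all 3 siRNLTR12-int libraries lie below all 4 controls (3.59% of all genes) or above them (4.09%).

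These figures do not show that the groups were alike. The 95% interval of the difference included 0 in all 29 members, and in 25 it also reached a doubling or a halving, a log2 difference of 1 or -1. The mean log2 level of the members was 12.75 ± 0.91 (SD, n = 3) in siRNLTR12-int libraries and 12.97 ± 0.81 (SD, n = 4) in controls, so that the spread inside either group exceeded the difference of -0.22. The direction of the median difference depended on single libraries. It was 0.07 without siRNLTR12-int replicate 2, 0.11 without siRNLTR12-int replicate 3, 0.04 without control replicate 1 and 0.03 without control replicate 2. It was -0.68 without siRNLTR12-int replicate 1, -0.41 without control replicate 3 and -0.43 without control replicate 4.

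**Figure D3:**
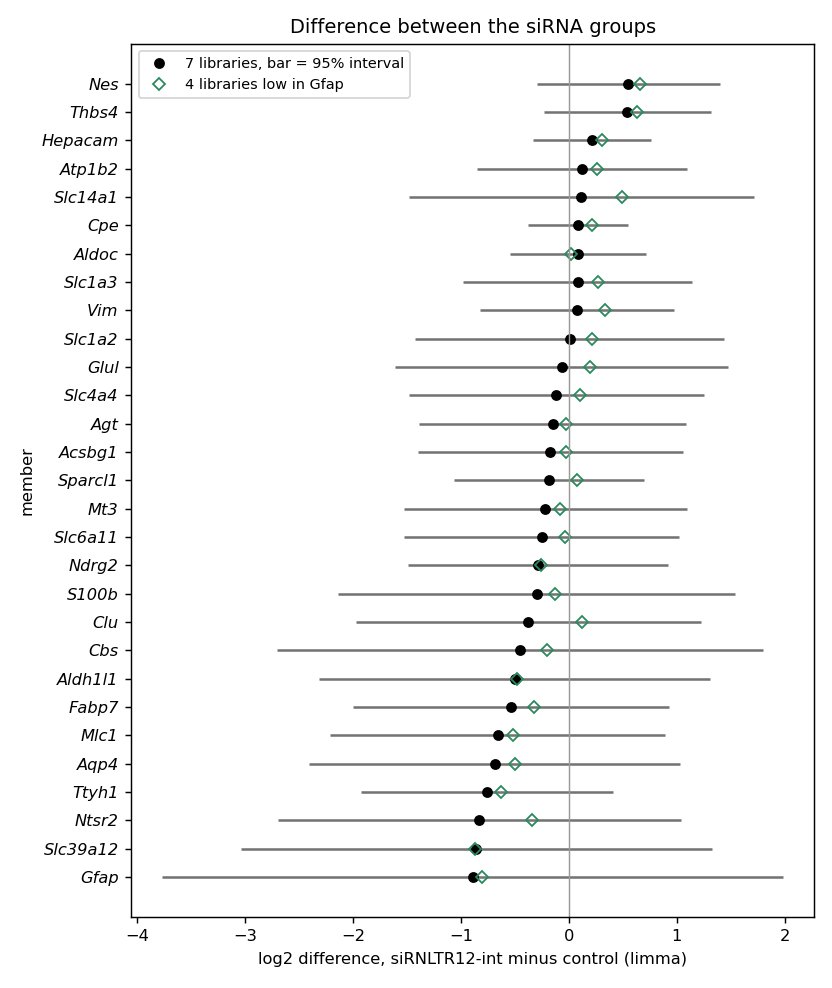
Log2 difference of each astrocyte gene, siRNLTR12-int minus control, from limma with 7 libraries (points, bars are 95% intervals, n = 3 and 4) and from limma with the 4 libraries low in Gfap (open diamonds, n = 2 and 2). All 29 bars cross 0, and the diamonds run from -0.87 for Slc39a12 to 0.66 for Nes.

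Within the 3 libraries high in Gfap there is a single siRNLTR12-int library. Its values were 0.861 to 1.39 times those of control replicate 1 (median 1.06) and 0.415 to 2.54 times those of control replicate 2 (median 1.24). It was above both controls in 16 members, below both in 6 and between them in 7. With 1 library on one side this has no test of its own.

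Without these 3 libraries, 2 siRNLTR12-int and 2 control libraries remain, and the members split into both directions. siRNLTR12-int replicates 2 and 3 were both below control replicates 3 and 4 in 10 members (34.5%, against 25.3% of all genes) and both above them in 12 (41.4%, against 31.2%). In this smaller fit 6 members passed (20.7%, limma adjusted p under 0.05), against 7.85% of all genes. An unadjusted limma p under 0.05 was found in 19 members, and in 24.5% of all genes. Aqp4 (log2 -0.50, adjusted p = 0.0126), Mlc1 (-0.52, adjusted p = 0.0231) and Ttyh1 (-0.62, adjusted p = 0.0385) were lower with siRNLTR12-int in limma with these 4 libraries. Nes (log2 0.66, adjusted p = 0.0114), Slc14a1 (0.49, adjusted p = 0.013) and Vim (0.34, adjusted p = 0.0455) were higher in the same limma fit. Gfap, at -0.80, did not pass there (limma adjusted p = 0.0613). Over the members the median was -0.02, against 0.01 over all genes, and 14 members were positive and 15 negative. The 2 siRNLTR12-int libraries of this fit were the most alike of any pair with the same siRNA (median chi-square of 1.29 per gene, where counting noise gives 0.455, against 2.76 for control replicates 3 and 4), so its p-values may rest in part on technical spread. The 4 libraries were also picked by the astrocyte level of these same members, so the members that passed are a description and no test.

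Other genes of astrocytes showed the same 3 libraries on top. In a list of 32 further astrocyte genes, 31 were measured and tested. Of these, 22 (71.0%, against 18.6% of all genes tested) had siRNLTR12-int replicate 1 and control replicates 1 and 2 highest. The mean log2 level of this list was 11.61, 10.31 and 10.27 in siRNLTR12-int replicates 1 to 3, against 11.55, 11.38, 10.25 and 10.27 in control replicates 1 to 4. Between the siRNA groups none passed with limma, 2 of 31 had an unadjusted p under 0.05 (6.3% of all genes tested), none passed in the authors' deposited table, and the median log2 difference was -0.16. The 3 with the smallest p were Mfge8, a secreted bridge for phagocytosis, Htra1, a secreted protease, and Fgfr3, a fibroblast growth factor receptor. Mfge8 had 12003, 13281 and 12369 normalised counts in siRNLTR12-int replicates 1 to 3, against 11187, 7532, 8677 and 7758 in control replicates 1 to 4 (log2 0.53, limma adjusted p = 0.662). Every siRNLTR12-int library was above every control for Mfge8, a placement seen in 2 genes of the list, the other being Lgr6, an R-spondin receptor gene (log2 0.36, limma adjusted p = 0.867). Of all genes tested 4.09% were placed so. Htra1 differed by 0.98 (limma adjusted p = 0.69) and Fgfr3 by -0.52 (limma adjusted p = 0.861).

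Regulators of astrocyte fate followed the libraries less uniformly. Of 22 listed, 21 were measured, and 11 (52.4%, against 18.6% of all genes tested) had the same 3 libraries highest. The spread of this list was also smaller, with a median ratio of 2.10 between highest and lowest library, against 3.76 for the members. None of the regulators passed with limma, 1 of 21 had an unadjusted p under 0.05, against the same 6.3% of all genes, none passed in the authors' deposited table, and the median log2 difference was 0.009. The smallest p-values were those of Nfib, a transcription factor of gliogenesis (log2 0.32, limma adjusted p = 0.701), the LIF receptor gene Lifr (0.25, limma adjusted p = 0.794) and the BMP receptor gene Bmpr1a (-0.45, limma adjusted p = 0.875). Nfib had 12397, 12781 and 12462 normalised counts in siRNLTR12-int replicates 1 to 3, against 11504, 9103, 9992 and 9752 in control replicates 1 to 4. Of the 21 regulators tested, 1 gene, Nfib, had every siRNLTR12-int library above every control, a placement seen in 4.09% of all genes tested.

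Of the markers of other cell types, those of microglia moved with the astrocyte genes and those of progenitors on average moved the other way. The part of other cell types in the result was not tested. The mean log2 level of the 19 measured microglia markers was 9.46, 6.59 and 6.57 in siRNLTR12-int replicates 1 to 3, against 9.81, 8.22, 6.60 and 7.12 in control replicates 1 to 4. Of these markers 16 of 19 tested (84.2%, against 18.6% of all genes) had the same 3 libraries highest. Among them was the most abundant, the lysosomal gene Cd68, and 0 of the 19 were at 0 in any library. Their summed normalised counts ranged from 5981 to 30942 in siRNLTR12-int libraries and from 4972 to 29992 in controls. The mean log2 level of the progenitor markers was lowest in the 3 libraries high in Gfap, at 12.38, 13.30 and 13.26 in siRNLTR12-int replicates 1 to 3, against 12.33, 12.63, 13.10 and 13.13 in control replicates 1 to 4. Their most abundant members were the phosphatase gene Ptprz1 and the transcription factor gene Olig1. Ptprz1 did not follow the mean of its list, with 173847, 194238 and 186357 normalised counts in siRNLTR12-int replicates 1 to 3, against 173180, 144355, 162637 and 149483 in control replicates 1 to 4. Olig1 did, with 30602, 50430 and 48929 normalised counts in siRNLTR12-int replicates 1 to 3, against 28784, 27410, 40714 and 42062 in control replicates 1 to 4. Pdgfra, the growth factor receptor that defines progenitors, had 16580, 53301 and 50749 normalised counts in siRNLTR12-int replicates 1 to 3, against 13936, 14570, 39041 and 38097 in control replicates 1 to 4. The labelled lineage was therefore present in all 7 libraries, Neu4 alone of its 14 measured markers was at 0 throughout, and Pdgfra was lowest where Gfap was highest.

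Myelinating markers followed neither pattern. Their mean log2 level was 10.54, 9.91 and 9.74 in siRNLTR12-int replicates 1 to 3, against 11.60, 13.43, 11.52 and 11.81 in control replicates 1 to 4, with Mbp the most abundant. The median log2 difference of its 20 genes was -2.14, and all 20 differences were negative, against 49% of all genes tested. Of the 20, 12 were lower at an adjusted p under 0.05 in the authors' deposited table, where 0.752% of all genes passed in either direction. With limma and with edgeR 0 of the 20 passed. An unadjusted p under 0.05 was found in 16 with limma and 17 with edgeR, against 6.3% and 6.39% of all genes tested. Control replicate 2, the highest in myelin markers, was one of the 3 libraries high in astrocyte genes, and control replicate 1 was too. Neuron markers, led by Map2 and Dcx, were at 8.47, 9.09 and 9.29 in siRNLTR12-int replicates 1 to 3, against 8.48, 9.33, 8.96 and 9.11 in control replicates 1 to 4. The list of endothelial, mural and fibroblast genes was led by Pdgfra, which progenitors express, and by Pdgfrb. It was at 6.79, 5.78 and 5.64 in siRNLTR12-int replicates 1 to 3, against 6.72, 4.94, 5.61 and 5.54 in control replicates 1 to 4. Cldn5, the endothelial tight junction gene, was at 0 in every library. Ependymal and choroid plexus genes, led by Dnah5 and Ccdc153, were at 6.25, 4.45 and 4.62 in siRNLTR12-int replicates 1 to 3, against 6.25, 5.44, 4.03 and 3.97 in control replicates 1 to 4. The mean of this list thus had the same 3 libraries highest as the astrocyte genes. So did 4 of its 8 genes tested (50%), against 18.6% of all genes tested.

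**Figure D4:**
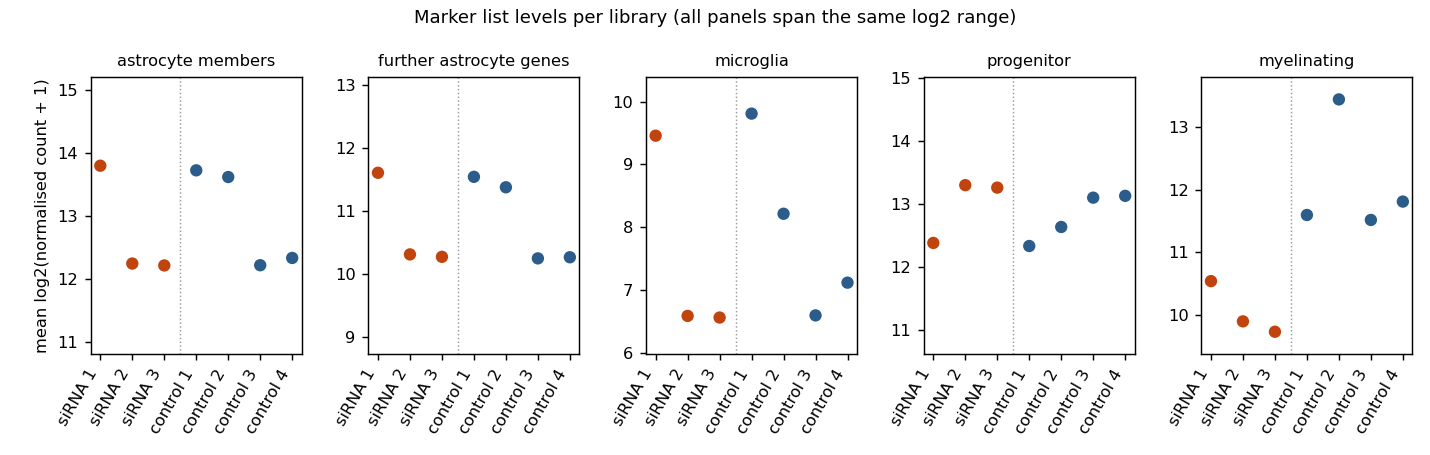
Mean log2(normalised count + 1) of 5 marker lists in 3 siRNLTR12-int libraries (orange) and 4 control libraries (blue), 1 point per library, all panels spanning the same range. Astrocyte members and further astrocyte genes are high in siRNLTR12-int replicate 1 and control replicates 1 and 2, microglia markers follow them, progenitor markers are lowest there, and every siRNLTR12-int library (siRNA 1 to 3 on the axis) lies below every control for myelinating markers.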

How the data were processed

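RNA was sequenced from 7 samples of cultured cells, 3 with siRNLTR12-int and 4 with control siRNA, as ribosome-depleted directional libraries, per the labels' protocols. Per the submitters' processing notes, Salmon and DESeq2 were used with build Rnor_6.0. The authors deposited a signal per gene and library, the count divided by 1 size factor, and a comparison table with log2 fold changes and p-values. All values above 0 (100%, tolerance 0.01 of a step) were whole multiples of 1 step per library. Division by that step gave whole counts, called recovered reads here. Whether these are rounded Salmon estimates is not stated. The sources used here do not say how shared or antisense reads were assigned.

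Log2(normalised count + 1) was fitted with limma 3.58.1 (trended empirical Bayes, two-sided, no covariate) over 18225 genes with a mean of at least 10, in R 4.3.3. Genes passed at p under 0.05 after Benjamini-Hochberg adjustment. This scale understates the change of low genes. EdgeR 4.0.16 and DESeq2 1.42.0 were run on recovered reads. Log2 levels of a list are means over its measured genes. The members and lists were chosen with earlier results of these data known. All members are named, and per-library values are given for defining markers, the 5 smallest p-values and the 3 largest and 3 smallest spreads. In other lists the 3 smallest p-values, or the 2 most abundant markers and those at 0 throughout, are named. Some markers that this rule selects are not reported here. Promoter sequences are from RefSeq (GRCr8).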

Additional observations from a re-analysis of the deposited data

Results flagged for a closer look

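Among 58 sets of 4 control values, each tested for a value far from the rest, 2 had a gap over the 95% critical value of the test, and chance flags about 1 in 20 such groups. The mean log2 level of the myelinating markers in control replicate 2 was 13.43, and its gap to the next control took 0.848 of the whole range. Dcx, a microtubule protein of young neurons, had 4362 normalised counts in control replicate 1, and the gap to the next control took 0.899 of the range on the log2 scale. This low value was not confined to the controls, since Dcx had 4635, 8908 and 8724 normalised counts in siRNLTR12-int replicates 1 to 3. None of the 29 astrocyte members was flagged in this way. In 27 of them control replicates 1 and 2 were above control replicates 3 and 4, and a test for 1 far value can hardly flag 2 high and 2 low values. The absence of flags therefore says little about these members.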

How the results depend on the processing

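No member passed under any alternative fit with all 7 libraries, which were other pseudocounts, filters and rescalings, array weights, no trend, edgeR and DESeq2. Over all genes limma called 0, against 839 with array weights, 141 with DESeq2, 1431 with the 4 libraries low in Gfap and 0 to 2 with single libraries left out. With those 4 libraries 3 members were higher and 3 lower. With single libraries left out 0 members were called, and the median difference ranged from -0.68 to 0.11. Some named genes outside the members did pass. With array weights these included Mfge8, Nfib and Fgfr3 (limma adjusted p = 0.0224, 0.0335 and 0.0471). With the 4 libraries low in Gfap they included Htra1, Mfge8 and Nfib (limma adjusted p = 0.00438, 0.0102 and 0.0296). Lifr and Bmpr1a passed in no fit.

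Members whose sign turned were uncalled throughout, except Slc14a1 and Vim in the fit of 4 libraries. The labels do not say whether replicate numbers pair the libraries. Deviations of same-numbered libraries correlated at 0.746 for replicate 1, -0.191 for replicate 2 and 0.632 for replicate 3, which does not settle it. The replicate block could use only replicates 1 to 3 and so left out control replicate 4. It called 0 genes, where leaving out control replicate 4 with no block called 2. Both fits use the same libraries in equal groups, so their log2 differences are equal by design. These were -0.29 for Slc1a2, -0.13 for Slc1a3, -0.0515 for Atp1b2, -0.0845 for Vim, -0.21 for Slc14a1 and -0.016 for Cpe. Slc1a2 was at -0.0113 with upper-quartile rescaling and -0.0689 with array weights, and Aldoc was at -0.0684 with array weights. In the 4 libraries low in Gfap Clu was at 0.12, Slc4a4 at 0.11, Glul at 0.19 and Sparcl1 at 0.0758. The cause was not tested. With single libraries left out, log2 differences ranged from -0.57 to 0.34 for Slc1a2, -0.32 to 0.34 for Slc1a3, -0.21 to 0.25 for Aldoc, -1.09 to 0.12 for S100b, -0.66 to 0.15 for Agt, -0.88 to 0.0574 for Clu, -0.26 to 0.34 for Atp1b2, -0.65 to 0.16 for Slc4a4, -0.68 to 0.11 for Acsbg1, -0.19 to 0.34 for Vim, -0.68 to 0.26 for Glul, -0.75 to 0.0287 for Slc6a11, -0.46 to 0.51 for Slc14a1, -1.41 to 0.0807 for Cbs, -0.46 to 0.027 for Sparcl1, -0.78 to 0.0736 for Mt3 and -0.0521 to 0.20 for Cpe. TMM and upper-quartile rescaling moved the median of all genes by 0.003 and -0.02.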

Other observations

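A few astrocyte genes outside the 30 had wider spreads than most members. They were chosen after their values were seen. Dio2, the deiodinase that activates thyroid hormone, had 618, 93.7 and 104 normalised counts in siRNLTR12-int replicates 1 to 3, against 573, 247, 81.0 and 33.7 in control replicates 1 to 4. Itih3, a hyaluronan-binding protein, had 1590, 133 and 118 normalised counts in siRNLTR12-int replicates 1 to 3, against 1897, 871, 160 and 243 in control replicates 1 to 4. Slc7a11, the cystine and glutamate exchanger, had 29934, 5365 and 4533 normalised counts in siRNLTR12-int replicates 1 to 3, against 30610, 34740, 3246 and 3094 in control replicates 1 to 4. In all 3 genes siRNLTR12-int replicate 1 and control replicates 1 and 2 were the highest libraries, with ratios between highest and lowest of 18.3, 16.0 and 11.2. The Notch target Hes5 had the reverse order for siRNLTR12-int replicate 1 and control replicate 1, which were its lowest libraries at 137 and 182 normalised counts, against 675 or more in the other 5.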
